A study of Drosophila melanogaster with 12 samples.

Results

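Third-instar larvae and adults of a *Drosophila melanogaster* strain that is sensitive to avermectins were compared here by RNA sequencing of whole bodies. The comparison takes 6 of the 12 libraries of the series, 3 of sensitive larvae and 3 of sensitive adults, chosen by their labels and not by any measured value. Of the 14001 genes in the deposited table, 11644 were at 1 FPKM or more in at least 3 of these 6 libraries and were tested. FPKM relate the fragments of a gene to the length of its transcript and to the size of its library. The other 6 libraries are larvae and adults, 3 of each, of a strain resistant to avermectins, a class of insecticides, and serve here only to show where the stage difference of the sensitive strain was also found. For the sensitive libraries the labels give wild type in place of a treatment and name no compound, transgene or allele. Sex and age of the adults are not stated, nor is it stated that replicates were separate cultures. The p-values here can therefore speak only of how these libraries vary, and that variation may be technical.

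A third-instar larva feeds through most of the stage and then leaves the food to pupariate. Its fat body fills the blood with storage hexamerins, its salivary glands make the glue that fixes the puparium, and its imaginal discs hold the cells that later form the adult's eyes, wings, legs and genitalia. During metamorphosis most larval tissues are broken down under the control of ecdysone, and the adult body with its compound eyes, flight muscle and reproductive organs replaces them. Whole-body RNA adds all these tissues together, so fewer cells of a type and less RNA per cell cannot be told apart in any value below.

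The sensitive libraries held an estimated 11820000 to 12040000 reads each, and 13035 to 13065 genes were above 0 in a larval library and 13337 to 13388 in an adult one. Larval RNA was concentrated in few genes. The 20 most abundant genes took 24.5 to 26.8% of all FPKM in larvae and 10.6 to 11.1% in adults, and 89 to 93 genes in larvae against 165 to 205 in adults made up the upper 50% of a library's FPKM. Pearson correlations of log2(FPKM + 1) across the tested genes were 0.984 to 0.987 among larvae and 0.636 to 0.66 between the stages. Adult replicates 2 and 3 correlated at 0.994, while adult replicate 1 correlated with them at 0.967 and 0.966. Larval replicate 1 also stood apart in its digestive genes, as given below. Stage markers matched the labels, in that 12 of 12 larval markers were higher in larvae and 7 of 7 adult and 5 of 5 adult female markers were higher in adults. Of 5 adult male markers 3, all of the accessory gland, were higher in adults, and betaTub85D and Mst84Da did not pass in both fits described next.

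Larvae and adults differed in most of the genes measured. In limma, on log2(FPKM + 1) with Benjamini-Hochberg adjustment over all tested genes and a threshold of 0.05, 8023 of 11644 genes passed (68.9%), 6485 of them higher in adults (55.7%) and 1538 higher in larvae (13.2%). Leaving out 1 library at a time gave 7108 to 8588 genes. The split between directions depends on how the libraries are put on a common scale. The median log2 difference of all tested genes, adult minus larva, was 0.62, and median-of-ratios scaling brought it to 0.02. After that scaling 6401 genes passed (55.0%), of which 3302 (28.4%) were higher in adults and 3099 (26.6%) in larvae. All 1538 genes higher in larvae without scaling and all 3302 genes higher in adults with scaling had the same call in the other fit. "Higher" is therefore written of single genes below only where both fits called them, and the counts for gene groups come from the calls that held in both. By this nesting a group's count in adults is the one with scaling and its count in larvae the one without, and they are to be read against the 28.4% and 13.2% of all tested genes. The wider counts, in adults without scaling (55.7% of all tested genes) and in larvae with it (26.6%), are given in the same order where they differ much. Group medians are without scaling, beside the 0.62 of all tested genes, unless called scaled. At a log2 difference of 2 or more, a 4-fold change on the log2(FPKM + 1) scale, 1068 genes were higher in adults (9.17%) and 529 in larvae (4.54%). The 3 larval and 3 adult values did not overlap in 73.6% of tested genes.

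The storage proteins of the larval fat body and blood were among the most abundant larval transcripts and were much lower in adults. Lsp1beta, a subunit of the hexamerin larval serum protein 1, was at 8317, 12295 and 11501 FPKM in the larval libraries and at 7.99, 6.46 and 8.76 FPKM in the adult ones. Fbp1, the receptor through which the fat body takes hexamerins back up, was at 3436, 4334 and 2762 FPKM in larvae and 1.07, 0.78 and 1.09 FPKM in adults. For both genes every larval library was above every adult library, with log2 differences, adult minus larva, of -10.25 (adjusted p = 2.38e-09, limma) and -10.77 (adjusted p = 1.81e-09). All 6 genes of this group, Lsp1alpha, Lsp1beta, Lsp1gamma, Lsp2, Fbp1 and Fbp2, were higher in larvae, where they took 3.41 to 4.8% of all FPKM against 0.00869 to 0.0108% in adults (median log2 difference -10.67). Lsp2, the other hexamerin, kept the highest adult level of the 6, at 6803, 9529 and 8802 FPKM in larvae and 60.6, 83.3 and 61.3 FPKM in adults.

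Salivary glue genes were larval as well. Sgs7, a small glue protein, was at 15251, 24086 and 14086 FPKM in larvae and 1.47, 1.16 and 2.63 FPKM in adults, the largest difference of any named gene higher in larvae (log2 -12.65, adjusted p = 3.34e-09, limma). Sgs3, a mucin-like glue protein, was at 4247, 5712 and 2719.6 FPKM in larvae and 1.09, 1.77 and 2.01 FPKM in adults. Larval replicate 2 was the highest of the 3 for both, and no adult library approached the larval range. Of 11 listed glue genes the filter kept 10, all 10 were higher in larvae, and their median log2 difference was -10.16 where that of all tested genes was 0.62. The group took 3.25 to 5.67% of larval FPKM.

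Genes of the larval cuticle took the largest share of larval RNA among the groups named so far. Lcp4, a structural cuticle protein, was the most abundant gene in every larval library at 3.15 to 3.43% of all FPKM. It was at 31464, 33367 and 34463 FPKM in larvae and 3.57, 3.53 and 5.75 FPKM in adults. Lcp3, its neighbour, was at 18515, 17091 and 23312 FPKM in larvae and 1.92, 2.42 and 3.66 FPKM in adults. Neither gene's adult values came near its larval ones. All 14 tested Lcp genes of 15 in the table were higher in larvae, with a median log2 difference of -6.68. Lcp1 and Lcp2, and the copies within the Lcp65A cluster, are similar in sequence, and how their shared reads were divided is uncertain, so the total is firmer than each copy.

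The larger Cpr family of cuticle proteins was divided between the stages. Of 69 Cpr genes, 49 were tested, 26 were higher in larvae and 19 in adults, with a median log2 difference of -1.16 that became 0.08 when genes below the filter were kept. Of the 69 genes 30 were below 1 FPKM in every larval library and 29 in every adult one. Tested ones among these, such as Cpr49Ac, met the filter through 1 stage alone, which fixed their direction. Cpr49Ac was at 678, 838 and 472 FPKM in larvae and at 0.59, 0.39 and 0.19 FPKM in adults. Cpr49Ab, from the same cytological region, was at 1.12, 1.04 and 0.62 FPKM in larvae and 100.2, 199 and 199 FPKM in adults. These genes moved in opposite directions, by -8.87 and 6.38 on the log2 scale, with no overlap between the stages in either. Acp65Aa, an adult cuticle protein, was at 1.72, 3.51 and 5.11 FPKM in larvae and 241, 259.8 and 365 FPKM in adults. Cpr47Eg was at 1187, 1241 and 2253 FPKM in larvae and 12.1, 0 and 0 FPKM in adults, so adult replicate 1 held a level that the other 2 lacked. Among 29 genes of chitin synthesis and turnover 13 were higher in larvae and 3 in adults (median -0.46, wider counts 20 and 4), and the larval ones included Cht10, a chitinase, at 13.9, 15.4 and 13 FPKM in larvae and 1.04, 0.57 and 0.36 FPKM in adults.

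The gut differed in which enzymes it made. Peritrophic matrix genes, whose products line the midgut, were higher in larvae in 8 of 11 cases and higher in adults in 1 (median log2 difference -3.27). Muc96D was at 159, 235 and 188 FPKM in larvae and 0.03, 0.09 and 0.15 FPKM in adults, while Muc68D was at 0.02, 0 and 0 FPKM in larvae and 79.5, 36.1 and 27.7 FPKM in adults. Both are mucin-like proteins, and their stages did not overlap.

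Digestive serine proteases made up 11.2, 4.68 and 4.27% of FPKM in the 3 larval libraries and 2.98, 3.11 and 3.35% in the adult ones. Of 32 tested members 15 were higher in larvae and 4 in adults (median log2 difference -0.70, wider counts 19 and 7), and 10 of the 32 passed in neither direction even without scaling. Without larval replicate 1 the unscaled count higher in adults went from 7 to 11, and that higher in larvae stayed at 15. Jon66Cii, a chymotrypsin-like Jonah protease, was at 1514, 746 and 648 FPKM in larvae and 2.46, 3.24 and 3.51 FPKM in adults. Ser7, another serine protease, was at 0.06, 0.18 and 0.12 FPKM in larvae and 39.1, 44.4 and 45.1 FPKM in adults. The trypsin alphaTry was at 661, 260.1 and 281 FPKM in larvae and 3969, 4981 and 5604 FPKM in adults, so it ran opposite to Jon66Cii (log2 3.72 against -7.80). Larval replicate 1 was the highest larval library for Jon66Cii and alphaTry.

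Of 7 gut lysozymes, enzymes that break down bacterial cell walls, 6 were higher in larvae and LysP alone in adults (median log2 difference -2.51). LysS was at 3063, 1281 and 922 FPKM in larvae and 0.19, 1.07 and 0.37 FPKM in adults. LysP, which is known from the adult salivary gland, was at 31.1, 25.4 and 31.5 FPKM in larvae and 331, 298 and 318 FPKM in adults. Larval replicate 1 held 1.38% of its FPKM in this group and the other larval libraries 0.471 and 0.334%, so it was the highest of the 3. Without adult replicate 1, 4 of the 6 larval calls held.

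Carbohydrases ran the other way. Of 18 tested amylases and maltases 14 were higher in adults and 2 in larvae, with a median log2 difference of 3.29. Mal-A1, a maltase, was at 11.1, 3.03 and 5.14 FPKM in larvae and 554, 759 and 637 FPKM in adults. Mal-B1 was at 0.75, 0.67 and 0.62 FPKM in larvae and 48.4, 54.3 and 45.7 FPKM in adults. Every adult value of both was above every larval one. The 2 members higher in larvae were Amyrel, an amylase-related gene, with a log2 difference of -2.17, and Mal-A5 with -0.76.

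**Figure D1:**
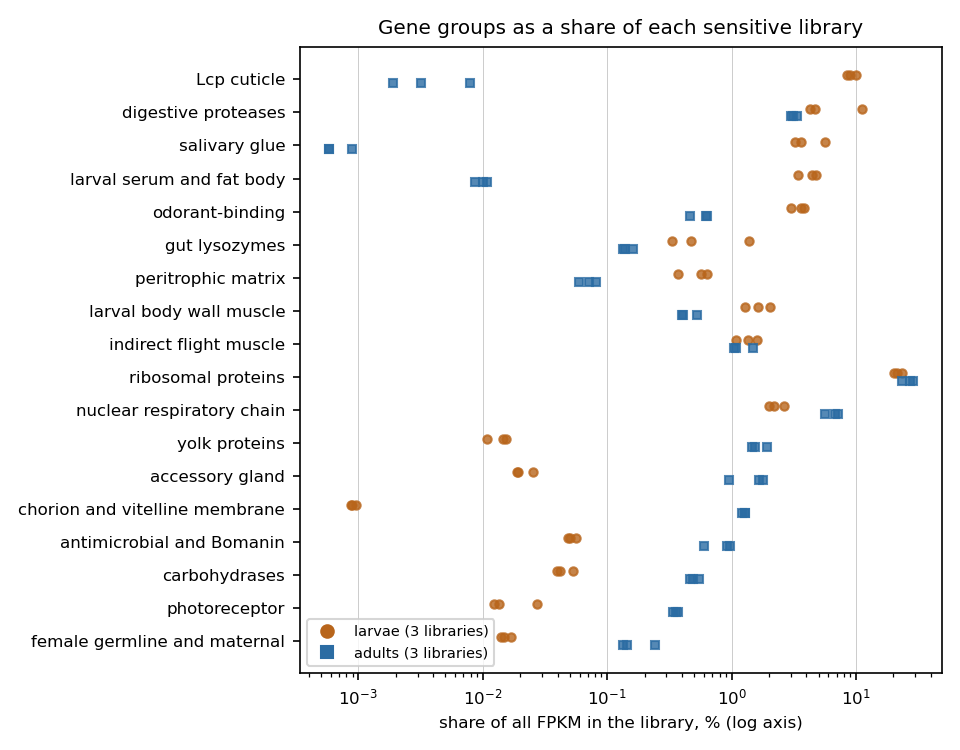
Share of all FPKM held by each of 18 gene groups (log axis, percent), with 1 point for each of 3 larval (circles) and 3 adult (squares) sensitive libraries. Every larval share lies above every adult one for Lcp cuticle, glue and serum proteins, and the reverse holds for yolk, eggshell, accessory gland, antimicrobial, carbohydrase and photoreceptor genes. Ribosomal protein shares lie close together, at 20.1 to 23.4% in larvae and 23.5 to 28.6% in adults.

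Genes of steroid hormone production and response leaned to the larva. Among 13 tested genes of ecdysone synthesis and turnover, 7 were higher in larvae and 2 in adults (median log2 difference -1.15), with 5 in adults without scaling. The synthesis gene spok was at 6.17, 10.6 and 4 FPKM in larvae and 0, 0 and 0.05 FPKM in adults, and shd, the last hydroxylase of the pathway, was at 20.9, 16.9 and 10.5 FPKM in larvae and 0.94, 0.78 and 0.62 FPKM in adults. Neither gene's stages overlapped, but both were below 1 FPKM in every adult library and met the filter through larvae alone, which fixed their direction. The receptor tyrosine kinase tor, which patterns the embryo's ends as well as acting in the prothoracic gland, was at 0.16, 0.19 and 0.14 FPKM in larvae and 11.8, 8.46 and 7.18 FPKM in adults. It met the filter through adults alone, which likewise fixed its direction. Of 18 tested ecdysone response genes 9 were higher in larvae and 5 in adults (median log2 difference -0.68). The broad gene br, which directs the larva to pupa switch, was at 26.4, 31.9 and 20.1 FPKM in larvae and 1.47, 0.58 and 0.55 FPKM in adults, and ftz-f1, a nuclear receptor of the prepupa that also acts in the ovary, was at 0.9, 0.95 and 0.99 FPKM in larvae and 9.8, 4.1 and 3.98 FPKM in adults. Adult replicate 1 was the highest adult for both of these. Every larval value of ftz-f1 was below 1 FPKM, so its direction was also fixed by the filter. Of 14 juvenile hormone genes 3 were higher in adults, among them Jhedup, a copy of the juvenile hormone esterase gene, with a log2 difference of 2.30. The other 11 did not pass in both fits, the wider counts were 8 in adults and 5 in larvae, and the median was 0.66.

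Imaginal disc and body patterning genes were low in both stages and leaned to the larva. Of 26 tested patterning genes 12 were higher in larvae and 0 in adults (median log2 difference -0.55), and without scaling the count in adults was also 0. The homeobox gene hth was at 8.17, 11.5 and 8.77 FPKM in larvae and 3.96, 2.38 and 1.54 FPKM in adults, and ci, the transcription factor of hedgehog signalling, was at 5.05, 7.68 and 5.73 FPKM in larvae and 2.66, 1.33 and 1.62 FPKM in adults. Both groups of 3 were separate. Of 4 tested Hox genes, which set segment identity, 3 were higher in larvae (median log2 difference -0.86), and abd-A was at 5.34, 9.4 and 6.13 FPKM in larvae and 1.94, 1.13 and 1.18 FPKM in adults.

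Female reproductive genes marked the adult. The yolk protein gene Yp1, expressed in the female fat body and ovary, was at 1.57, 2.32 and 0.94 FPKM in larvae and 6009.7, 5251 and 5038 FPKM in adults, the largest difference of any named gene higher in adults (log2 11.05, adjusted p = 2.14e-09, limma). Yp3 was at 105, 148 and 144 FPKM in larvae and 4081, 4006 and 3931 FPKM in adults, so it had a larval level that Yp1 and Yp2 lacked. The yolk receptor yl was at 0.08, 0.08 and 0.11 FPKM in larvae and 149, 141 and 137 FPKM in adults. All 4 genes of this group were higher in adults in every library (median log2 difference 8.68).

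Eggshell genes were higher in adults in 20 of 20 cases, with a median log2 difference of 6.61. Cp15, a chorion protein of late egg chambers, was at 0.35, 0.53 and 1.06 FPKM in larvae and 1625, 1066 and 3038 FPKM in adults, and Vm34Ca, a vitelline membrane protein made earlier, was at 1.27, 0.93 and 1.3 FPKM in larvae and 1909.5, 1853 and 1191 FPKM in adults. Adult replicate 3 was the highest for Cp15 and the lowest for Vm34Ca. Of 35 female germline and maternal genes 28 were higher in adults and 0 in larvae (median log2 difference 2.74). The posterior determinant osk was at 0.09, 0.15 and 0.03 FPKM in larvae and 169, 79 and 68.8 FPKM in adults, and gnu, a regulator of the first embryonic divisions, was at 0.93, 1.15 and 0.67 FPKM in larvae and 198, 195 and 187 FPKM in adults. The germline thioredoxin dhd was at 1.69, 1.04 and 0.8 FPKM in larvae and 2273, 2193 and 2238 FPKM in adults. Adult replicate 1 held 0.244% of its FPKM in this group against 0.145 and 0.133% in the other 2, and without it the unscaled count higher in adults was 30, as with it.

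Genes of the cell cycle were higher in adults as well. Of 28 DNA replication genes 26 were higher in adults and 0 in larvae (median log2 difference 2.22), and of 20 mitosis genes 17 and 0 (median 1.67). CycE, the cyclin of S phase entry, was at 2.56, 2.87 and 2.19 FPKM in larvae and 46, 29.3 and 28.6 FPKM in adults. CycB, a mitotic cyclin, was at 16.3, 14.1 and 15 FPKM in larvae and 449.7, 282 and 284 FPKM in adults. In both the stages were separate and adult replicate 1 was the highest library. These transcripts are also loaded into eggs, and how much of them came from the ovary was not tested.

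Male reproductive genes separated into those of the accessory gland, which were adult, and those of sperm formation, which were present in both stages. Of 57 tested accessory gland and seminal fluid genes 56 were higher in adults (median log2 difference 4.78), and 32 of the 62 in the table were listed at 0 in all 3 larval libraries. Met75Cb, an accessory gland gene with a close copy, was at 2.83, 0.83 and 4.54 FPKM in larvae and 1607, 3972 and 3756 FPKM in adults. The sex peptide gene SP, whose product alters the behaviour of mated females, was at 0, 0 and 0.45 FPKM in larvae and 70.6, 338 and 312 FPKM in adults. Acp26Aa, a seminal protein that stimulates egg laying, was listed at 0 in every larval library and stood at 47.5, 49.4 and 45.9 FPKM in adults. Adult replicate 1 was the lowest adult for Met75Cb and SP, and held 0.954% of its FPKM in the group against 1.78 and 1.67%. Leaving out any of the 6 libraries left 56 unscaled calls, with the tested genes kept. However, 51 of the 62 listed genes were below 1 FPKM in every larval library. Tested ones among these met the filter through adults alone, which fixed their direction in each of these fits.

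Testis genes behaved otherwise. Of 28 genes of sperm chromatin and tail 4 were higher in adults and 1 in larvae. The unscaled count in adults was 20 and ranged from 14 to 23 as libraries were left out, and the median log2 difference of 0.64 was at that of all tested genes, 0.62. The testis tubulin betaTub85D was at 33.6, 25.8 and 37.1 FPKM in larvae and 40.9, 61 and 54.9 FPKM in adults, with a log2 difference of 0.68 unscaled and -0.01 scaled, and did not pass in both fits. Mst84Db, a sperm tail protein, was at 45.5, 30.4 and 43 FPKM in larvae and 73.6, 145 and 161 FPKM in adults and was higher in adults. Of 18 tested regulators of testis transcription and meiosis 2 were higher in adults and 3 in larvae, with a median of -0.16 that became 0.92 over the members with a mean of 5 FPKM or more and -0.62 after scaling. The scaled fit called 11 of them higher in larvae, while the 3 larval calls became 1 without larval replicate 1 or 3 or adult replicate 1 or 3, so no direction is given for this group. The regulator Rbp4, a spermatocyte RNA-binding protein, was at 4.53, 4.58 and 6.51 FPKM in larvae and 2.14, 3.24 and 2.7 FPKM in adults, and twe, the meiotic Cdc25 phosphatase, was at 2.44, 2.97 and 3.23 FPKM in larvae and 24.5, 11.7 and 10.6 FPKM in adults.

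Genes of the adult eye were higher in adults, and 21 of the 36 listed were below 1 FPKM in every larval library. Of 32 tested photoreceptor genes 26 were higher in adults and 0 in larvae (median log2 difference 3.22). The main rhodopsin gene ninaE was at 0.48, 0.6 and 0.38 FPKM in larvae and 913, 762 and 716 FPKM in adults, and Arr2, the arrestin that shuts rhodopsin off, was at 0.27, 0.39 and 0.56 FPKM in larvae and 560.4, 688 and 699.6 FPKM in adults. The rhodopsin Rh3 was listed at 0 in the larval libraries and at 52.7, 44.5 and 43.8 FPKM in adults. Rh6, which is also made in the larval visual organ, was at 2.07, 1.53 and 2.99 FPKM in larvae and 25.3, 34.3 and 30.8 FPKM in adults. All 4 genes were separate between stages, and Rh6 had the highest larval level.

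Odorant-binding proteins, small carriers secreted in sense organs and other tissues, were divided. Of 38 tested genes 19 were higher in adults and 14 in larvae (median log2 difference 1), and in larvae Obp99b held most of the family's FPKM. Obp99b was at 24897, 33183 and 30779.6 FPKM in larvae and 57.9, 173 and 145 FPKM in adults, so the family took 2.98 to 3.83% of larval FPKM and 0.461 to 0.637% of adult FPKM. In adults Obp99c was the highest of the family, at 1831, 1629.5 and 2067 FPKM in larvae and 1651, 2398 and 2682 FPKM in adults, which overlap. Obp83a, an antennal carrier, was listed at 0 in larvae and stood at 57.9, 111 and 111 FPKM in adults. Obp19d was at 0.28, 0.14 and 0.16 FPKM in larvae and 312, 349 and 323 FPKM in adults. The stages were apart in Obp99b, Obp83a and Obp19d. However, Obp83a and Obp19d met the filter through the adult libraries alone, which fixed their direction. Of the 51 listed genes 29 were below 1 FPKM in every larval library and 14 in every adult one. The filter fixed the direction of the tested members among these, so the counts of this family are in part no result. Of 164 odorant, gustatory and ionotropic receptor genes only 6 passed the filter, and 161 were below 1 FPKM in every larval library and 157 in every adult one. Of those 6, 3 were higher in adults and 0 in larvae (median log2 difference 1.14). The 3, Orco, Or47a and Ir7c, were below 1 FPKM in every larval library and met the filter through the adult libraries alone. Their direction was thus fixed by the filter and is no result about the receptors. The odorant co-receptor Orco was at 0.19, 0.15 and 0.3 FPKM in larvae and 6.4, 6.06 and 5.92 FPKM in adults and was higher in adults.

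Among neuronal genes that met the filter more were higher in adults than in larvae. Of 20 tested neuronal genes 11 were higher in adults and 2 in larvae (median log2 difference 0.90). Of the 32 listed, 21 were below 1 FPKM in every larval library and 12 in every adult one. Some of the tested members therefore met the filter through adults alone, which fixed their direction. The synaptic vesicle gene nSyb was at 1.52, 1.82 and 1.39 FPKM in larvae and 21.9, 10.8 and 9.13 FPKM in adults, whereas Syt1, the calcium sensor of vesicle release, was at 24.2, 25.7 and 24.1 FPKM in larvae and 3.28, 1.54 and 1.78 FPKM in adults. nSyb and Syt1 ran in opposite directions without overlap. The other neuronal gene higher in larvae, elav, was at 2.75, 3.18 and 2.96 FPKM in larvae and 1.46, 1.36 and 1.31 FPKM in adults. Of 34 tested neuropeptide genes 11 were higher in adults and 5 in larvae, shares near the 28.4% and 13.2% of all tested genes, with a median of 0.66 and wider counts of 19 and 12. Nplp3 was at 4.46, 1.01 and 1.35 FPKM in larvae and 2149, 1614 and 1952 FPKM in adults, and Nplp4 was at 1185, 1548 and 1746 FPKM in larvae and 6.31, 4.56 and 4.83 FPKM in adults. Both are annotated as neuropeptide-like precursors, and they were the largest differences of the group in their directions. Among the insulin-like peptides, Ilp6, the fat body hormone of non-feeding growth, was higher in larvae (log2 -1.44), and Ilp8, the disc growth signal that is also made in the ovary, was higher in adults (log2 4.41). Of 9 tested circadian genes 6 were higher in adults and 0 in larvae (median log2 difference 1.99). The light sensor cry was at 1.51, 1.73 and 2.09 FPKM in larvae and 61.6, 80.9 and 75.5 FPKM in adults, and tim, a core clock gene, was at 1.13, 0.44 and 0.39 FPKM in larvae and 15.1, 10.8 and 9.19 FPKM in adults.

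Muscle showed exchanges between related genes. Act88F, the actin of the indirect flight muscle, was at 1.92, 1.16 and 1.1 FPKM in larvae and 1955, 1183 and 1433 FPKM in adults. Act79B, an actin of adult tubular muscle, was at 2.76, 1.16 and 1.77 FPKM in larvae and 1185, 891 and 880.2 FPKM in adults. Act57B, the main actin of larval body wall muscle, was at 3777, 5795 and 6742 FPKM in larvae and 952, 551 and 575 FPKM in adults. The first 2 were higher in adults by 9.30 and 8.44 on the log2 scale (adjusted p = 6.06e-09 and 1.12e-08, limma), and Act57B was higher in larvae (log2 -2.98, adjusted p = 2.91e-05). Actin coding sequences are much alike, so reads of one may have been counted for another. The cytoplasmic actin Act5C was higher in larvae (log2 -0.57), a call that ended without larval replicate 1, adult replicate 2 or adult replicate 3 (adjusted p = 0.0556, 0.0736 and 0.0732, limma) and with every library set to a common total of FPKM (adjusted p = 0.122).

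Troponin C, the calcium sensor of the thin filament, followed the same lines. TpnC4, the flight muscle form, was at 0.2, 0.24 and 0.21 FPKM in larvae and 161, 125 and 144 FPKM in adults, and TpnC41C was at 1.16, 0.65 and 1.51 FPKM in larvae and 72.7, 87.5 and 83.5 FPKM in adults. TpnC73F was at 668, 764 and 880.0 FPKM in larvae and 72.2, 52.7 and 49.4 FPKM in adults, and TpnC47D was at 310.1, 443 and 675 FPKM in larvae and 36.3, 56.1 and 53.7 FPKM in adults. So 2 forms were adult and 2 larval, while TpnC25D, at 98.9, 134 and 168 FPKM in larvae and 116, 176 and 173 FPKM in adults, overlapped between the stages. Of 23 tested genes of the flight muscle list 7 were higher in adults and 8 in larvae, with a median log2 difference of 0.06 that became -0.57 after scaling. The adult ones included fln, a flight muscle thick filament protein, at 1, 0.43 and 0.26 FPKM in larvae and 433, 278 and 316 FPKM in adults. The larval ones were shared sarcomere genes such as Mlc2, a myosin light chain, at 3580.3, 4545 and 5653 FPKM in larvae and 1543, 1607 and 1757 FPKM in adults. Of 18 genes of larval body wall muscle 9 were higher in larvae and 1 in adults (median -0.69). In the resistant strain 5 of the flight muscle list and 5 of the larval list were called in the opposite direction.

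**Figure D2:**
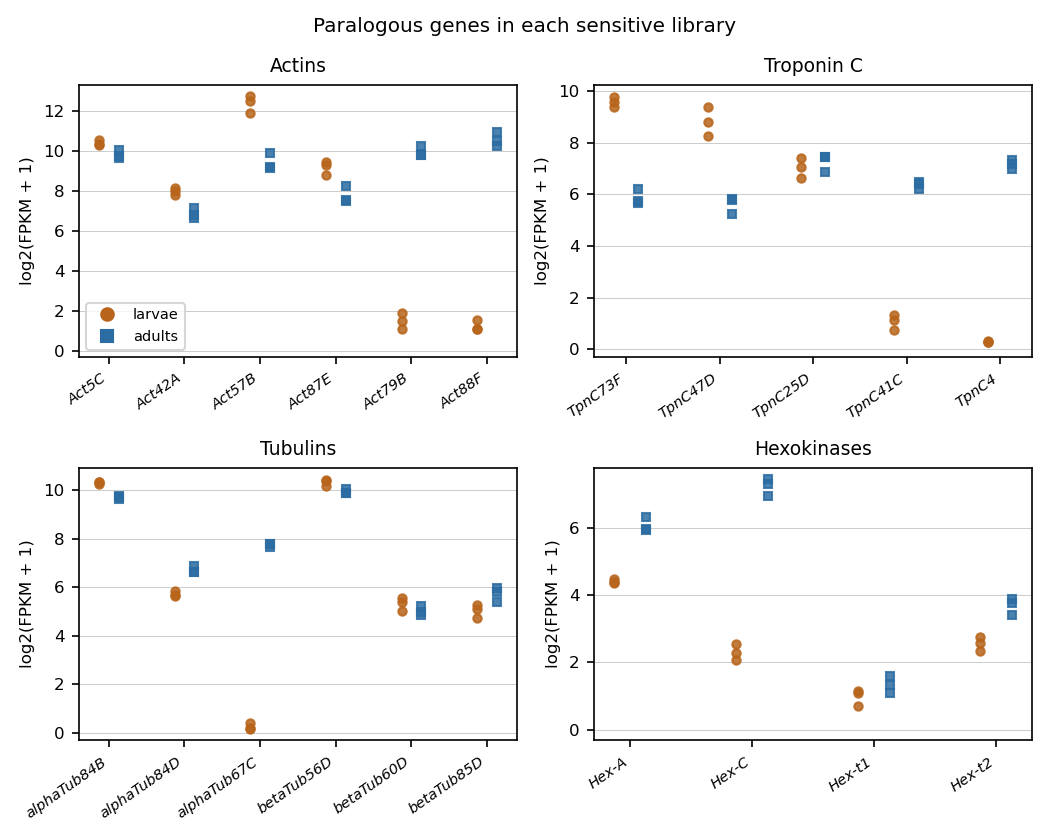
Levels of related genes in each sensitive library as log2(FPKM + 1), for actins, troponin C, tubulins and hexokinases, with 3 larval (circles) and 3 adult (squares) points per gene. Act79B, Act88F, TpnC41C, TpnC4 and alphaTub67C are near 0 in larvae and high in adults, Act57B and TpnC73F are higher in larvae, and the points of TpnC25D, betaTub60D and Hex-t1 overlap between stages.

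Tubulins held an exchange as well. The maternal tubulin alphaTub67C was at 0.1, 0.16 and 0.32 FPKM in larvae and 199, 218 and 220.2 FPKM in adults, whereas the general alphaTub84B was at 1289, 1211 and 1285 FPKM in larvae and 869.7, 835 and 801 FPKM in adults. The first was higher in adults by 7.49 and the second higher in larvae (log2 -0.59). Hex-C, a hexokinase of fat body and gut, was at 3.18, 3.84 and 4.87 FPKM in larvae and 122, 172 and 157 FPKM in adults, and the general Hex-A was at 19.9, 21.5 and 19.3 FPKM in larvae and 79.2, 61.4 and 59.7 FPKM in adults. Both were higher in adults, Hex-C by 4.93 and Hex-A by 1.67 on the log2 scale, and Hex-t1 and Hex-t2 did not pass in both fits.

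Nuclear genes of the respiratory chain leaned to the adult. Of 91 nuclear genes of the respiratory chain 37 were higher in adults and 2 in larvae, and 74 were higher in adults before scaling (median log2 difference 1.21). The group took 2.01 to 2.62% of larval FPKM and 5.65 to 7.12% of adult FPKM. Cyt-c-p, the general cytochrome c, was at 301, 286 and 357 FPKM in larvae and 1724, 1501 and 1632 FPKM in adults, and COX7AL2, a subunit copy of cytochrome oxidase, was at 0.95, 0.65 and 0.33 FPKM in larvae and 163, 528 and 593 FPKM in adults. Both were separate between stages, and adult replicate 1 was the lowest adult for COX7AL2. Of the 13 genes encoded in the mitochondrial genome 2 were higher in larvae and 0 in adults (median -0.32), but neither call is firm, since leaving out adult replicate 2 or 3 or larval replicate 2 ended both, and leaving out adult replicate 1 gave 5.

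Among 25 genes of glycolysis and sugar storage 6 were higher in adults and 2 in larvae, no larger a share than the 28.4% and 13.2% of all tested genes. Their median was 0.69, and the wider counts were 16 and 5. Ldh, lactate dehydrogenase, was at 316, 406 and 485 FPKM in larvae and 37, 35.2 and 26.3 FPKM in adults, the largest difference of the group toward the larva. Tps1, which makes the blood sugar trehalose, was at 45.1, 49.5 and 52.2 FPKM in larvae and 413, 469 and 446 FPKM in adults. Ldh and Tps1 ran in opposite directions with no overlap. Of 27 tested lipid genes 8 were higher in adults and 5 in larvae, the wider counts were 13 and 10, and the median of 0.52 became -0.06 after scaling. The lipoprotein apolpp, the main lipid carrier of the blood, was at 142, 266 and 217 FPKM in larvae and 31.7, 26.3 and 24.4 FPKM in adults. Cyp4g1, which completes hydrocarbon synthesis in the oenocytes, was at 56.8, 81.8 and 82.4 FPKM in larvae and 4107, 3706 and 3046 FPKM in adults. Fad2, a desaturase of female pheromones, was at 0, 0.07 and 0.13 FPKM in larvae and 119, 133 and 139.7 FPKM in adults, and eloF, the female elongase, was at 0.28, 0.66 and 0.28 FPKM in larvae and 33.7, 27.5 and 35.5 FPKM in adults.

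Enzymes of detoxification had members on each side. Of 81 tested cytochrome P450 genes 26 were higher in adults and 19 in larvae, of 35 glutathione transferases 6 and 11, and of 27 UDP-glycosyltransferases 11 and 3. The wider counts, adults first, were 42 and 32, 12 and 19, and 17 and 8. The medians of 0.58, 0.02 and 0.87 became -0.04, -0.64 and 0.29 after scaling. Cyp6a19 was at 0.76, 1.04 and 0.72 FPKM in larvae and 92.2, 88.1 and 73.7 FPKM in adults, and Cyp4d1 was at 363, 386 and 421 FPKM in larvae and 14.7, 21.9 and 24.4 FPKM in adults. GstD10 was at 93.7, 95.1 and 104 FPKM in larvae and 3.45, 7.75 and 6.74 FPKM in adults, and GstE6 was at 42.4, 39 and 55.8 FPKM in larvae and 139, 247 and 245 FPKM in adults. The stages were apart in all 4. Ugt35B1 was at 4.4, 5.9 and 8.1 FPKM in larvae and 47.2, 58.2 and 53.3 FPKM in adults.

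Most immune effectors were higher in adults, and more genes of recognition and blood cells were higher in larvae than in adults. Of 28 tested antimicrobial and Bomanin genes, short peptides of the Toll and Imd responses, 20 were higher in adults and 2 in larvae (median log2 difference 3.75). BomS6 was at 1.54, 1.05 and 0.52 FPKM in larvae and 617, 1771 and 1715 FPKM in adults, and Drsl4, a drosomycin-like peptide, was at 0, 0.59 and 0.29 FPKM in larvae and 267, 917 and 964 FPKM in adults. Adult replicate 1 was the lowest adult for both, and it held 0.601% of its FPKM in this group against 0.967 and 0.926%. Of the 31 listed genes 11 were below 1 FPKM in every larval library. Tested ones among these, such as Drsl4, met the filter through adults alone, which fixed their direction. Of 27 tested genes of recognition and hemocytes 15 were higher in larvae and 1 in adults (median log2 difference -0.56). Without scaling 8 were higher in adults. He, the hemese gene of blood cells, was at 23.7, 43.8 and 29.2 FPKM in larvae and 0.16, 0.32 and 0.32 FPKM in adults, and NimC2, a Nimrod receptor, was at 21, 28.6 and 14.2 FPKM in larvae and 1.18, 0.67 and 0.76 FPKM in adults. NimC4, the apoptotic cell receptor also called simu, was the 1 gene higher in adults in both fits, listed at 0 in larvae and at 7.97, 7.02 and 9.86 FPKM in adults. Its direction, too, was fixed by the filter.

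Stress genes ran in both directions. TotA, a stress-induced Turandot peptide, was at 1729, 2757 and 1953 FPKM in larvae and 145, 171 and 264 FPKM in adults, while TotM was at 0, 0.36 and 0 FPKM in larvae and 28.1, 62.3 and 192 FPKM in adults. The small heat shock gene Hsp23, which ecdysone also induces, was at 828, 749 and 563 FPKM in larvae and 14.6, 23.3 and 21.1 FPKM in adults, while Hsp70Ab, of a family of near-identical copies, was at 1.21, 0.98 and 1.36 FPKM in larvae and 62.8, 43.8 and 40.6 FPKM in adults. In each pair the stages were apart and the directions opposite, though Hsp23 and Hsp70Ab belong to different families. Of 16 tested genes 8 were higher in adults and 5 in larvae (median 1.20).

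Housekeeping groups had few calls that held in both fits. Of 92 ribosomal protein genes 3 were higher in adults and 3 in larvae. Their median log2 difference was 0.12 without scaling, where 79 passed in neither direction, and -0.59 with it, where 34 were higher in larvae and 3 in adults, so no direction is given for this group. Duplicated copies were among the exceptions. RpS5b, which is enriched in the female germline, was at 14.6, 11.4 and 17.8 FPKM in larvae and 649, 818 and 928 FPKM in adults, while its copy RpS5a was at 1893, 2144 and 2349 FPKM in larvae and 1304, 1463 and 1625 FPKM in adults. These copies ran in opposite directions, though the call of RpS5a ended without larval replicate 2 or 3 or adult replicate 2 (adjusted p = 0.0725, 0.0829 and 0.079, limma) and with a common total of FPKM (adjusted p = 0.0747). The unscaled ribosomal count higher in adults was 10 and rose to 31 without adult replicate 1, while it was 4 without adult replicate 2 or 3. Of 48 proteasome genes 0 were higher in adults and 1 in larvae in both fits, with 11 and 1 at an adjusted p under 0.05 in the unscaled limma fit alone and 0 and 23 in the scaled one, so none is given here either. Of 33 genes of the vacuolar proton pump 3 were higher in adults and 3 in larvae, the wider counts were 10 and 13, and the median of 0.19 became -0.45 after scaling.

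**Figure D3:**
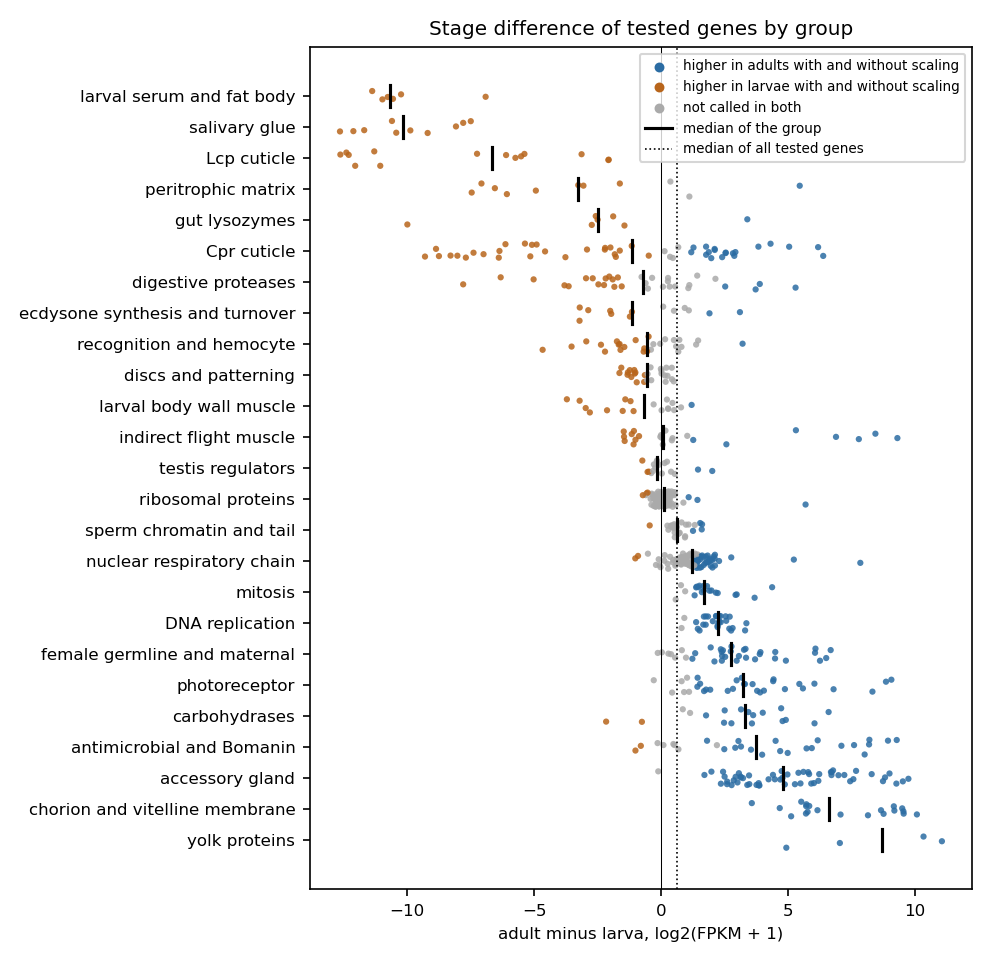
Log2 difference, adult minus larva, of each tested member of 25 gene groups, with the group median as a black bar and the median of all tested genes as a dotted line. Blue points were called higher in adults and brown points higher in larvae with and without scaling, and grey points were not called in both. Medians run from -10.67 for the serum proteins to 8.68 for the yolk group, and Cpr cuticle, protease and muscle members lie on each side of 0.

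Genes found in 1 stage only were counted as those at 5 FPKM or more in all 3 libraries of that stage and below 0.5 in all 3 of the other. There were 298 such adult genes and 129 such larval genes. Of the larval ones 96 have no given name beyond a CG or CR number (74.4%), against 149 of the adult ones (50.0%) and 42.3% of all tested genes. The listed groups held 29.2% of the adult-restricted and 14.7% of the larva-restricted genes, against 10.7% of all tested genes. The most abundant larval ones included Eig71Ee, an ecdysone-induced gene of the salivary gland, at 1821, 2359 and 1256 FPKM in larvae and 0.23, 0.34 and 0.23 FPKM in adults, and ng3, of the new glue family, at 857, 889 and 1429.7 FPKM in larvae and 0, 0 and 0.3 FPKM in adults. The direction of most of these genes was the same in the other strain. Of 292 adult-restricted genes that could be tested there 292 were higher in adults at an adjusted p under 0.05 in limma, and of 117 larva-restricted genes 113 were higher in larvae.

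Some genes with strong differences lay side by side. Of 1057 genes with a strong adult difference and a place on a chromosome 413 (39.1%) had a neighbour among the tested genes that was also strongly adult, and of 523 strong larval genes 234 (44.7%) had such a neighbour. Of all tested genes 9.17% were strongly adult and 4.54% strongly larval, and a gene can have such a neighbour on either side. How many would lie together at these shares alone was not tested. There were 23 adult and 12 larval runs of 4 or more. On the dm6 assembly, the longest larval run held 11 cuticle genes from Lcp65Ag2 to Lcp65Aa at chr3L:6132990-6151803, with log2 differences of -12.31 to -2.07. The longest adult run held the 10 Bomanin genes from BomT1 to BomS6, with differences of 2.91 to 9.27. Eggshell genes formed adult runs at chrX:8470888-8489535 (6 genes, from Cp7Fa through Cp36 and Cp38 to otu), at chr3L:8725520-8732599 (5 genes, including Cp18, Cp15, Cp19 and Cp16) and at chr2L:5956489-5967752 (6 genes, including Vm26Ab, Vm26Ac, Vm26Aa and psd). The new glue genes ng1, ng2, ng3 and Pig1 lay in a larval run at chrX:3236130-3249289. Lcp1 to Lcp4 with Cyp4ad1 formed a larval run of 5 genes, and the next run on the same arm, Cyp4e1 with Mal-A1 to Mal-A4, was adult. Coordinates are those of the annotation, and neighbours that arose by duplication may share reads.

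The stage difference was then set beside that of the resistant strain, whose 6 libraries share no sample with these. There 6260 of 12013 genes passed without scaling (52.1%), 4165 higher in adults (34.7%) and 2095 in larvae (17.4%). Calls in the resistant strain are all from this unscaled fit. Of 1053 genes strongly higher in sensitive adults and tested in resistant flies 976 were also higher in resistant adults, and of 496 strongly higher in sensitive larvae 440 were higher in resistant larvae. The difference of the 2 stage differences was tested in limma on all 12 libraries, and 3640 of 12270 genes passed (29.7%). That count fell to 2126, 2356 and 2406 without sensitive larval replicate 3, resistant larval replicate 1 and resistant adult replicate 1. At a size of 2 or more on the log2 scale 476 passed without scaling (3.88%). With and without scaling 2140 genes passed, and 464 of these differed by 2 or more without scaling, 149 with the sensitive strain above and 315 with it below.

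Shared sarcomere genes were among them. Mlc2 differed between adults and larvae by -1.47 on the log2 scale in the sensitive strain and by 2.40 in the resistant one (adjusted p of the difference = 0.000703, limma). TpnC47D differed by -3.21 and 1.68 (adjusted p = 0.00116), so its stage difference had opposite signs in the strains. Act88F, by contrast, was adult in both, at 9.30 and 11.22. All 6 storage protein genes were higher in larvae of both strains, and 5 of them differed in size, as with Lsp1alpha at -10.98 and -5.33 (adjusted p = 2.91e-07). The exception was Lsp2, at -6.92 and -6.91 (adjusted p = 0.994). Of the listed eggshell genes 20 of 20, of the accessory gland genes 56 of 57 and of the photoreceptor genes 27 of 32 had the same called direction in the resistant strain, both without scaling. The germline, yolk, glue and Cpr cuticle groups kept theirs in 27 of 35, 4 of 4, 10 of 10 and 38 of 49. Smaller shares held among the DNA replication (18 of 28), Lcp cuticle (7 of 14, some not tested there), mitosis (5 of 20) and sex and dosage compensation genes (0 of 11). These totals are all tested members, also those not called in the sensitive strain. Of the 11 sex and dosage compensation genes only 6 in adults and 1 in larvae were called there. Of 11486 genes tested in both strains 5248 had the same sign and passed in the resistant one. The group counts asked for a call in the sensitive strain as well. On those terms the count of all genes can be no larger than 5248, and it was not taken. In size 36 of the accessory gland genes differed between strains.

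**Figure D4:**
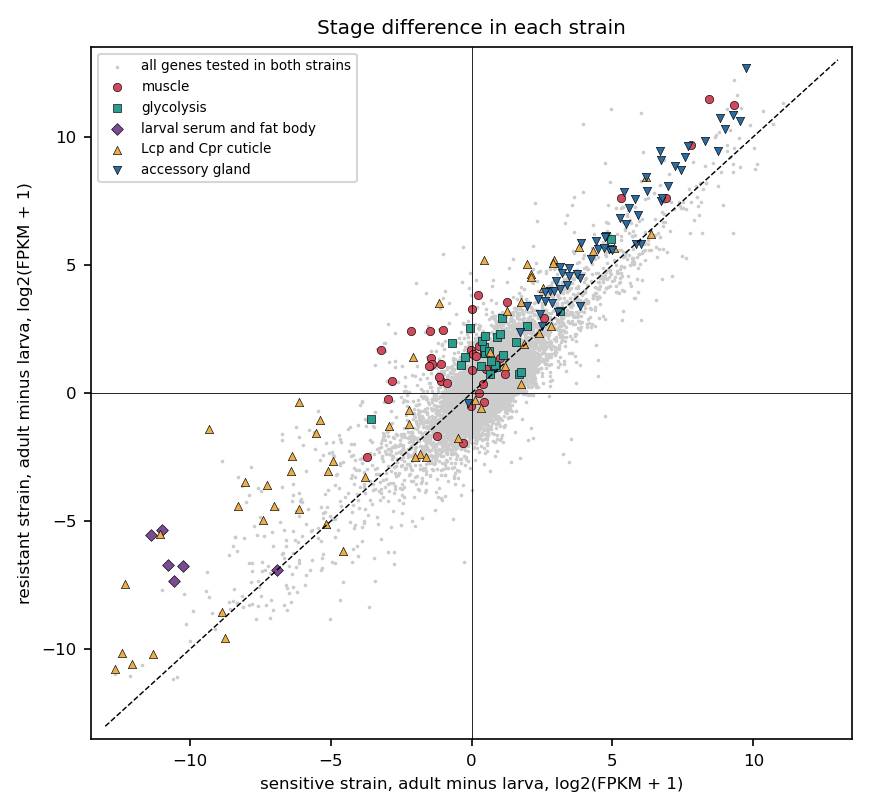
Stage difference, adult minus larva on the log2(FPKM + 1) scale, of each gene in the sensitive (horizontal axis) and the resistant strain (vertical axis), with 5 gene groups coloured and the dashed line at equal differences. Most accessory gland genes lie at upper right and above the line, larval serum genes other than Lsp2 at lower left and above it, and many muscle genes at negative values in the sensitive and positive values in the resistant strain.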

How the data were processed

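Per the labels' protocols, TRIzol was used to extract total RNA of whole bodies, and libraries were run on a BGISEQ-500. STAR, RSEM 1.3.3, FastQC 0.11.9, edgeR 3.12 and the dm6 build appear in the submitters' processing notes, which give no settings. The authors deposited 1 table of FPKM for 14001 genes in 12 libraries. Use of strand, and the division of reads among near-identical genes, are not stated in any source used here, and 256 genes have the same values as another gene. Names and coordinates come from Ensembl's BDGP6 annotation, on the coordinates of dm6, where 13777 identifiers were found. A further 142 names came from the file, and 82 identifiers had none.

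The 3 larval and 3 adult sensitive libraries were assigned by their labels. FPKM carry no counts, so limma 3.58.1 in R 4.3.3 was fitted to log2(FPKM + 1), with trend and robust empirical Bayes, two-sided, for genes at 1 FPKM or more in at least 3 of the 6 libraries. A gene below 1 FPKM in every library of 1 stage met this filter only through the other stage, which fixed its direction. Below 1 FPKM in every larval library were 51 of 62 accessory gland, 13 of 20 eggshell and 14 of 35 female germline genes. So were 21 of 36 photoreceptor, 29 of 51 odorant-binding, 11 of 31 antimicrobial and Bomanin, 30 of 69 Cpr and 40 of 49 Tweedle and Osiris genes. Below 1 FPKM in every adult library were 7 of 11 glue, 29 of 69 Cpr, 14 of 51 odorant-binding and 25 of 49 Tweedle and Osiris genes. The pseudocount makes log2 differences of low genes smaller than those of their FPKM. The interaction of stage and strain used all 12 libraries. Reads per library were estimated from the steps between low FPKM of single-transcript genes, of which 91.1 to 94.6% lay within 0.2 of a whole read, where chance gives 40%. The settings of this estimate were chosen to maximise that share. A value listed at 0 may be a failed estimate.

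Gene groups, 50 lists in all, are sets of known tissue and function genes, and each is described by its counts and median, with no test of the list, against the shares and median of all tested genes given in the overview of the stage difference. The members and lists were chosen with earlier results of these data known. Named genes follow a rule: the 12 largest differences in each direction, up to 3 members per list and direction, fixed families of related genes, the 10 most abundant genes per stage, the 5 largest strain differences each way and stage markers. The text names part of these. Genes named for stage restriction, for runs of neighbours or as further members of a list were chosen after their values were seen.

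The fits were tested on simulated FPKM with 100 genes changed 2-fold and 100 changed 4-fold. The stage fit on 10705 genes recovered 46 and 97 of them, with 6.5% of its calls on unchanged genes. The interaction fit on 10952 genes recovered 11 and 78, with 5.3%. All simulated libraries were drawn from the mean FPKM of sensitive larvae with a dispersion of 0.05. As many genes were raised as lowered in sensitive adults, and all others were left unchanged. The simulation thus held no shift like the median of 0.62 in the data, and its shares do not speak of false calls under such a shift. Alternatives were other filters, pseudocount and scaling, the replicate block, 1 fit of all libraries, and each library left out with the tested genes kept. Figures used Python 3.11.15 and matplotlib 3.10.9.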

Additional observations from a re-analysis of the deposited data

Results flagged for a closer look

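The genes below were picked out because their stage difference differed between the sensitive and the resistant strain in limma with and without scaling. The difference also had to be 2 or more on the log2 scale without scaling. Each value is the stage difference of the sensitive strain minus that of the resistant strain, and 3.88% of the 12270 genes tested passed at that size without scaling. They are those among the genes named in the text, of 464 that passed in both fits and had that size without scaling. With scaling Cht10 was at 1.98. A negative value means that the larva stood further above the adult, or the adult less far above the larva, in sensitive than in resistant flies. The cause was not tested in any case.

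Storage proteins other than Lsp2 and several larval cuticle genes had negative values. They were -5.65 for Lsp1alpha, -3.50 for Lsp1beta, -3.22 for Lsp1gamma, -5.85 for Fbp2 and -4.08 for Fbp1. Among cuticle genes they were -7.89 for Cpr47Eg, -4.40 for Lcp65Aa and -3.49 for Lcp65Ag2. The stage difference of Lcp65Ag2 was -2.07 in the sensitive strain and 1.42, on the adult side, in the resistant one, where it did not pass. Cpr47Eg rests on uneven libraries, since adult replicate 1 of the sensitive strain was alone above 0 among the sensitive adults. Its standard error was 0.88 for the sensitive stage difference and 2.43 for the difference between strains. Its resistant stage difference was -1.42 (adjusted p = 0.607, limma), so the unevenness is not of the sensitive libraries alone. The carrier Obp99b was at -3.77, the neuropeptide-like gene Nplp4 at -3.93 and the new glue gene ng2 at -2.44.

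Muscle genes had negative values of several kinds. Mlc2 (-3.87) and TpnC47D (-4.89) were higher in larvae of the sensitive strain. Their resistant stage differences without scaling were on the adult side, at 2.40 and 1.68 (adjusted p = 0.0031 and 0.04896, limma), so that of TpnC47D was close to the threshold. Act57B (-2.73) was higher in sensitive larvae, with a resistant stage difference of -0.25, and TpnC25D (-3.61) did not pass in both fits in the sensitive strain, with a resistant stage difference of 3.84. Act79B (-3.02) and TpnC41C (-2.29) were adult in both strains with a larger difference in the resistant one.

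Further adult genes with a larger difference in the resistant strain were Yp3 (-3.30), Acp65Aa (-3.33), Met75Cb (-2.95), Nplp3 (-2.91), Cyt-c-p (-2.37) and GstE6 (-2.17). Ldh (-2.55) and GstD10 (-3.54) were higher in sensitive larvae with smaller differences in the resistant strain. In the other direction alphaTry (3.31), TotM (3.16) and BomS6 (3.01) had larger adult leads in sensitive flies, and Cht10 (2.50) had a larger larval lead in resistant flies.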

How the results depend on the processing

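Scaling moved the split between directions most. Genes higher in adults went from 6485 to 3302 with median-of-ratios and 3618 with upper-quartile scaling, and genes higher in larvae from 1538 to 3099 and 2828. The other filters, the pseudocount of 0.1, a common total of FPKM, 1 fit of all 12 libraries and the fit without robust estimation kept every count of calls over all genes within 1.5 times, though a common total ended the calls of Act5C, RpS5a and w. The 1597 strong differences became 4721 at a log2 size of 1 or more and 2448 when tested against a size of 1. Leaving out 1 library gave 7108 to 8588 calls (5784 to 6831 in adults, 1324 to 1757 in larvae), 1583 to 1646 strong ones, and 2126 to 4752 for the difference between strains. Group medians changed direction with the filter or total as follows: Cpr cuticle 0.08 and Tweedle and Osiris 0.3 without a filter, testis regulators 0.92 at a mean of 5 FPKM and 0.01 with a common total. With median-of-ratios scaling the medians of pigment (-0.27), lipid (-0.06), P450 (-0.04), Malpighian (-0.05), V-ATPase (-0.45), sex (-0.21) and proteasome genes (-0.43) turned, and betaTub85D reached -0.01. With upper-quartile scaling those of pigment (-0.18), V-ATPase (-0.4), sex (-0.13) and proteasome genes (-0.35) did. Scaling takes the shift of all genes out by construction, and a filter changes which members count.

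With the replicate number as a block 7834 genes passed, 1593 strongly, and 3796 for the difference between strains. Deviations of same-numbered larvae and adults correlated at -0.089, -0.284 and 0.176, and those of differently numbered ones at -0.265 to 0.326. With 3 libraries per stage these deviations are tied to each other, so the correlations cannot decide whether the numbers pair the samples. Without counts the exact error of low values is unknown.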

Other observations

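Groups not described above also had members on each side. Of 11 tested Tweedle and Osiris genes, of secreted cuticle families, 6 were higher in larvae and 4 in adults (median log2 difference -0.57), and of 9 tested adult cuticle genes 2 and 5 (median 2.11). Of the 49 listed Tweedle and Osiris genes 40 were below 1 FPKM in every larval library and 25 in every adult one. Tested ones among these, such as TwdlF, TwdlG and Osi15 in adults, had their direction fixed by the filter. Of 24 tested genes of tyrosine, dopamine and pigment 6 were higher in larvae and 8 in adults (median 0.39, wider counts 11 and 11). The adult ones included yellow-g, which is expressed in the follicle cells of the ovary, at 0.51, 0.52 and 0.32 FPKM in larvae and 58, 149.7 and 53.6 FPKM in adults, and the larval ones yellow-f, at 58.6, 54.6 and 48.7 FPKM in larvae and 4.76, 8.51 and 9.94 FPKM in adults. Of 17 tested Malpighian tubule genes 5 were higher in adults and 3 in larvae (median 0.63, wider counts 9 and 5), and urate oxidase, Uro, was at 125, 136 and 162 FPKM in larvae and 41.6, 35.9 and 39.4 FPKM in adults. Of 11 genes of sex and dosage compensation 3 were higher in adults and 1 in larvae (median 0.46, wider counts 6 and 2), and msl-1, a subunit of the male complex that is also maternal, was at 1.8, 2.21 and 1.43 FPKM in larvae and 15.9, 8.34 and 6.81 FPKM in adults. Of 12 tested pheromone and eye pigment genes 5 were higher in adults and 2 in larvae (median 0.89, wider counts 7 and 4), and the white gene w was at 19.1, 20.2 and 20.7 FPKM in larvae and 14, 14.7 and 13.7 FPKM in adults. The stages of these 5 genes did not overlap, but the call of w ended with a common total of FPKM (adjusted p = 0.135, limma).

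Genes on chromosome 4, the small and largely heterochromatic dot chromosome, leaned to the larva. Of 67 tested genes 26 were higher in larvae without scaling (38.8%, against 13.2% of all tested genes) and 9 in adults, and their median log2 difference was -0.36 where that of all tested genes was 0.62. After median-of-ratios scaling the medians were -0.89 and 0.02. The median log2(FPKM + 1) of the chromosome was 3.18, 3.7 and 3.21 in the larval libraries and 3.55, 2.71 and 2.64 in the adult ones, so adult replicate 1 lay within the larval range. In the resistant strain the median of 74 tested genes was -0.55 against 0.28 of all, with 28 higher in larvae and 7 in adults. Genes were not compared one by one, no cause was tested, and the pattern was noticed after the values were seen. Among the other arms the X held the lowest share of genes strongly higher in larvae (2.82%) and 3L the highest (6.65%), against 4.54% of all tested genes.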
